A study of Saccharomyces cerevisiae with 4 samples.

Results

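The genes described here are the 10 that encode the enzymes of isoleucine, valine and leucine synthesis in the yeast Saccharomyces cerevisiae. They were taken by name, as the probes that the platform annotation assigns to ILV1, ILV2, ILV3, ILV5, ILV6, LEU1, LEU2, LEU4, LEU9 and BAT1. Each of the 10 genes had 1 probe, and together they are 10 of the 5539 named genes and of the 6189 features measured, a feature being a gene or a probe without a gene name. Total RNA from cells with the temperature-sensitive allele abf1-1 shared each array with total RNA from wild type cells, the mutant in channel 1 and wild type in channel 2. Abf1 is an essential DNA-binding protein of yeast, known from many promoters, from origins of replication and from silencers. Both strains grew in the rich medium YPAD at 30 °C to an OD600 of 1.0 to 1.2, received an equal volume of YPAD at 42 °C, and spent 45 min at 36 °C before RNA was isolated. There were 4 such arrays, numbered 1 to 4 as in the labels, in 1 group. The labels name no strain background, no other marker alleles and no separate cultures, so the p-values speak of the scatter among the 4 arrays alone, and this may be technical.

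Isoleucine and valine are built by parallel reactions that share their enzymes, and leucine branches off from the valine precursor. Most of the steps run in mitochondria, while the later leucine steps run in the cytosol. In yeast the end products are known to inhibit Ilv1, acetolactate synthase through Ilv6, and Leu4. At the promoters the pathway is known to be activated by Gcn4, the activator of the response to amino acid starvation, and by Leu3, which responds to the leucine intermediate alpha-isopropylmalate.

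Each value below is a log2 ratio of the 2 channels of an array, less the median over that array's probes. The log base and the strain in the numerator are stated by neither the labels nor the table. The ratios are taken as log2, an assumption that the fold differences below rest on, and are given with the sign as deposited, and neither sign is read as higher in the mutant. The arrays fell into pairs: over all probes, Pearson's r was 0.742 for arrays 1 and 3, and 0.864 for arrays 2 and 4, but between -0.221 and 0.05 for the other combinations. Nothing in the labels, such as a batch or a dye swap, matches these pairs, and means by pair are given below for some of the members. The number of arrays limits the precision. No counts or brightness came with the ratios, so the precision of single probes cannot be judged.

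LEU2 and ILV6 were the members that passed the test, and they had opposite signs. LEU2 had a mean log2 ratio of 1.18 ± 0.11 (SD, n = 4) and ILV6 one of -0.65 ± 0.18 (SD, n = 4). The other 8 members had negative means between -0.40 and -0.09, and none of them was called by limma. A gene is called here where its Benjamini-Hochberg adjusted p, over all 6189 features, was below 0.05 in limma's test of the ratio against 0. By that measure 2 of 10 members were called, 1 positive and 1 negative, against a background of 3.23% of all features in either direction, 1.37% positive and 1.86% negative. At an unadjusted p below 0.05 limma found 4 of 10 members, against 20.8% of all features. The median over the 10 members was -0.22, and over all features it was 0.02. These ratios are relative to the median transcript of each array, so a change in total RNA per cell would not be seen. Limma's test of the ratio against 0 treats the 4 arrays as independent, although the arrays within each pair were correlated. Its p-values, calls and intervals, for the members here and for the lists below, rest on that assumption, which the pairs do not meet. As the mutant was in channel 1 on every array, a difference between strains and a difference between channels cannot be told apart in any of them.

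**Figure D1:**
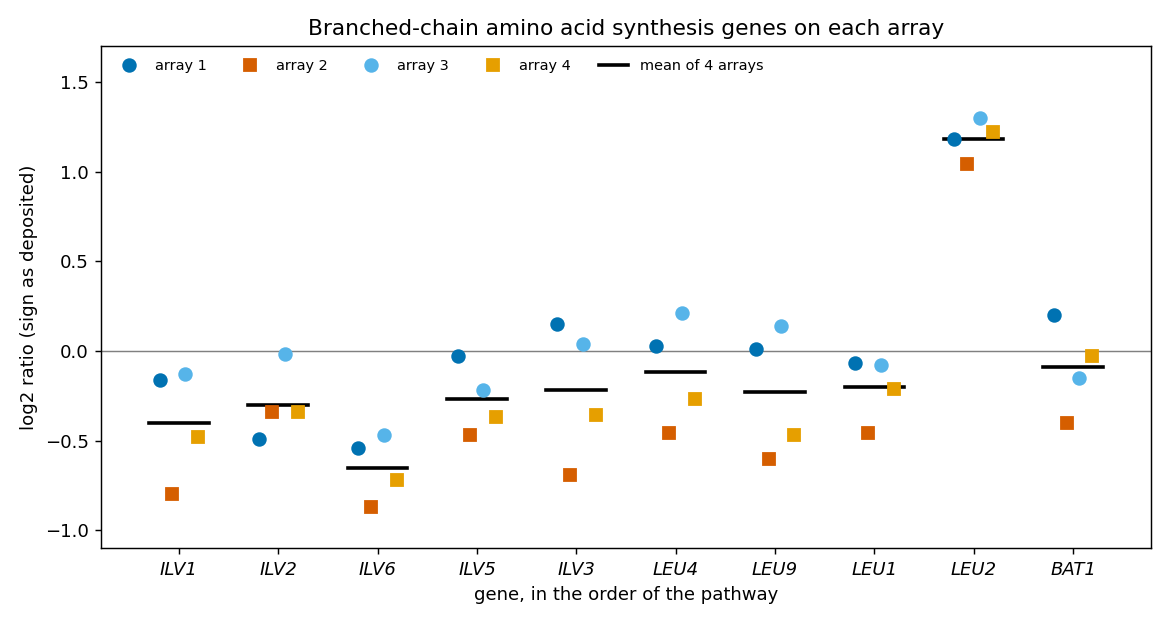
Log2 ratio of each of the 10 genes (vertical axis, sign as deposited) in pathway order on each of the 4 arrays (points; circles for arrays 1 and 3, squares for arrays 2 and 4), with the mean over arrays as a bar. LEU2 lies between 1.04 and 1.30 on every array, while ILV6, between -0.87 and -0.47, is the lowest member on each of them.

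At the entry of the isoleucine branch, ILV1 encodes threonine deaminase, which turns threonine into the first isoleucine precursor. ILV1 had log2 ratios of -0.16, -0.80, -0.13 and -0.48 on arrays 1 to 4. It was thus negative on every array and lay farther from 0 on arrays 2 and 4, with a mean of -0.15 for the pair 1 and 3 and of -0.64 for the pair 2 and 4. The mean of -0.40 ± 0.31 (SD, n = 4) did not pass limma's test (adjusted p = 0.216, 95% interval -0.76 to -0.03). In a second limma fit with a pair term, drawn from the correlations of these same arrays, only the spread within the pairs counts as error. That fit called 32.7% of all features, and ILV1 among them at an adjusted p of 0.0128.

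The first enzyme shared by the branches, acetolactate synthase, has a catalytic subunit from ILV2 and a regulatory subunit from ILV6, which makes the enzyme sensitive to valine. ILV6 had log2 ratios of -0.54, -0.87, -0.47 and -0.72 on arrays 1 to 4. It was the lowest of the 10 members on each of the 4 arrays, and by mean it stood at place 141 from the bottom of the 5539 named genes. Limma called it at an adjusted p of 0.0494, close to the threshold, with a 1.57-fold difference if the ratios are log2 and a 95% interval of -0.93 to -0.36. Without any 1 array the adjusted p of ILV6 lay between 0.134 and 0.277, and quantile normalization also ended the call, at 0.0678. ILV2 had log2 ratios of -0.49, -0.34, -0.02 and -0.34. It was negative on every array, though array 3 was near 0, and its mean of -0.30 ± 0.20 (SD, n = 4) was not called by limma (adjusted p = 0.236).

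The following shared steps are catalysed by the reductoisomerase from ILV5, whose product is also known to help maintain mitochondrial DNA, and by the dihydroxyacid dehydratase from ILV3, an iron-sulphur enzyme. ILV5 had log2 ratios of -0.03, -0.47, -0.22 and -0.37 on arrays 1 to 4, all negative. Its mean was -0.27 ± 0.19 (SD, n = 4), which limma did not call (adjusted p = 0.262). ILV3 had log2 ratios of 0.15, -0.69, 0.04 and -0.36. Its sign differed between the pairs of arrays, with a mean of 0.10 for the pair 1 and 3 and of -0.53 for the pair 2 and 4, and the mean over all arrays was -0.22 ± 0.39 (SD, n = 4; limma adjusted p = 0.529). With the pair term, under which 32.7% of all features were called, limma called ILV5 and ILV2 at adjusted p of 0.0353 and 0.0499, and ILV3 was not called, at 0.0946.

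Leucine synthesis starts with alpha-isopropylmalate synthase, made as a main isozyme from LEU4 and a second one from LEU9. LEU4 had log2 ratios of 0.03, -0.46, 0.21 and -0.27 on arrays 1 to 4, and LEU9 had 0.01, -0.60, 0.14 and -0.47. Both genes were positive on arrays 1 and 3 and negative on arrays 2 and 4, with pair means of 0.12 and -0.36 for LEU4 and of 0.07 and -0.54 for LEU9. Their means were -0.12 ± 0.30 for LEU4 and -0.23 ± 0.36 for LEU9 (SD, n = 4 each), with limma adjusted p of 0.686 and 0.473. The genes are close paralogs and the probe sequences were not used here, so signal that one probe draws from the other transcript cannot be told apart.

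LEU1 encodes isopropylmalate isomerase, the step after the synthase. It had log2 ratios of -0.07, -0.46, -0.08 and -0.21 on arrays 1 to 4. It was negative on each array and within 0.1 of 0 on arrays 1 and 3, and its mean of -0.20 ± 0.18 (SD, n = 4) was not called by limma (adjusted p = 0.375).

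LEU2 encodes beta-isopropylmalate dehydrogenase, which follows Leu1, and it is also one of the most used selection markers of yeast genetics. Its log2 ratios were 1.18, 1.04, 1.30 and 1.22 on arrays 1 to 4. All 4 arrays lay on the same side of 0 and apart from every other member, of which the highest value on any array was 0.21. Limma called LEU2 at an adjusted p of 0.0115, with a 2.27-fold difference if the ratios are log2 and a 95% interval of 0.93 to 1.44. By mean it stood at place 15 from the top of the 5539 named genes. On single arrays its place was 58, 328, 17 and 128. Of all features, 8.43% had a smaller SD over arrays than LEU2. The 200 called features, which the test selects partly for a small SD, had a median SD of 0.19. Of these, 28 had a smaller SD than LEU2. The mean of LEU2 was 1.24 for the pair 1 and 3, and 1.13 for the pair 2 and 4. Without array 2 LEU2 kept its call, at an adjusted p of 0.0483, and without array 1, 3 or 4 it did not, at 0.0818, 0.0735 and 0.138, where limma called 0 features in all, with 898, 1066 and 752 at an unadjusted p below 0.05. If the signs of arrays 2 and 4 were turned, the mean of LEU2 would be 0.05 and its call would be lost.

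LEU2 was set beside other genes used as selection markers in yeast. Of the 8 marker genes listed, LEU2 included, 1 was called, LEU2 itself, against 3.23% of all features. The other 7 had mean log2 ratios between -0.15 for LYS2, of lysine synthesis, and 0.35 for ADE2, of adenine synthesis. ADE2 had 0.57, 0.17, 0.20 and 0.46 on arrays 1 to 4 (limma adjusted p = 0.184), and the arginine permease gene CAN1 had 0.40, -0.05, 0.59 and 0.16 (limma adjusted p = 0.323). The labels do not give the LEU2 allele of either strain, so a difference in the allele or its copies and a difference in its transcription cannot be told apart. Nor can either be told apart from a difference between the channels, as the mutant was in channel 1 on every array.

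The last step, transamination of the keto acids, is carried out in mitochondria by the aminotransferase from BAT1. BAT1 had log2 ratios of 0.20, -0.40, -0.15 and -0.03 on arrays 1 to 4. Its sign was mixed, its mean of -0.09 ± 0.25 (SD, n = 4) was the closest to 0 among the 10 members, and limma did not call it (adjusted p = 0.737). Its cytosolic counterpart BAT2, named here after its values were seen, had 0.15, -0.78, 0.02 and -0.61, a mean of -0.30 ± 0.46 (SD, n = 4; limma adjusted p = 0.43). BAT1 and BAT2 are paralogs, and the limit given for LEU4 and LEU9 applies to them too.

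**Figure D2:**
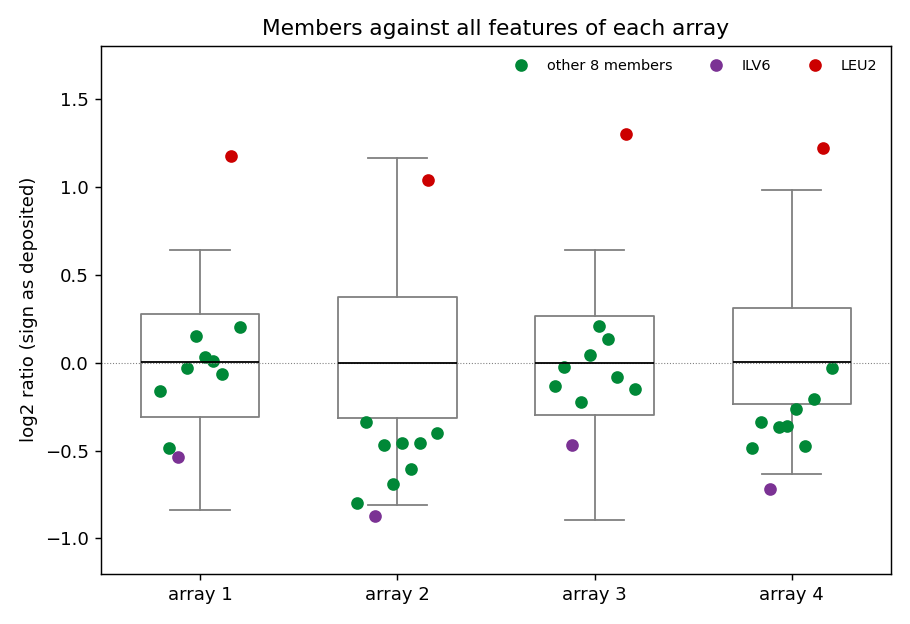
Log2 ratios (vertical axis, sign as deposited) of all 6189 features on each array, with the box from the 25th to the 75th percentile, the median as a line and whiskers at the 5th and 95th percentiles, and of the 10 members as points. On array 2 the 9 members other than LEU2 all lie below the 25th percentile of -0.31, and on array 1 only ILV6 and ILV2 lie below it, which is also -0.31 there.

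The members other than LEU2 were shifted to the negative side on arrays 2 and 4, and less so on arrays 1 and 3. The median of these 9 genes was -0.03, -0.47, -0.08 and -0.36 on arrays 1 to 4, where the median of all probes is 0 by construction. Of the 10 members 5, 9, 6 and 9 were below 0 on arrays 1 to 4, against between 49.9% and 50.1% of all features. The distance from LEU2 to the median of the other 9 was 1.21, 1.51, 1.38 and 1.58. A mean ratio below 0 was found for 9 of 10 members and for 47.5% of all features, and 6 of 10 members had the same sign on all 4 arrays, against 31.1% of all features. Those 6 were LEU2 on the positive side and ILV1, ILV2, ILV5, ILV6 and LEU1 on the negative side, where 5 of 10 members compare with 16.4% of all features.

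For every member the mean of arrays 2 and 4 was below the mean of arrays 1 and 3, as it was for 53.9% of all features. Single arrays did not all follow this, as ILV2 was lowest on array 1, and BAT1 was lower on array 3 than on array 4. The median difference between the pair means was -0.29 for the members and -0.06 for all features. It was widest for ILV3 at -0.62, LEU9 at -0.61, ILV1 at -0.49 and LEU4 at -0.48, and narrowest for ILV2 at -0.08 and LEU2 at -0.11. In the fit with the pair term limma called 5 of 10 members, LEU2 and the negative ILV1, ILV2, ILV5 and ILV6, against a background of 32.7% of all features in either direction and 16% negative. On arrays 2 and 4 alone limma called 8 of 10 members, against 42% of all features. On arrays 1 and 3 alone it called 2 of 10, LEU2 and ILV6, against 33.3% of all features. The pairs were drawn from the correlations of these arrays, so the difference between them was not tested, and what sets them apart was not tested either.

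**Figure D3:**
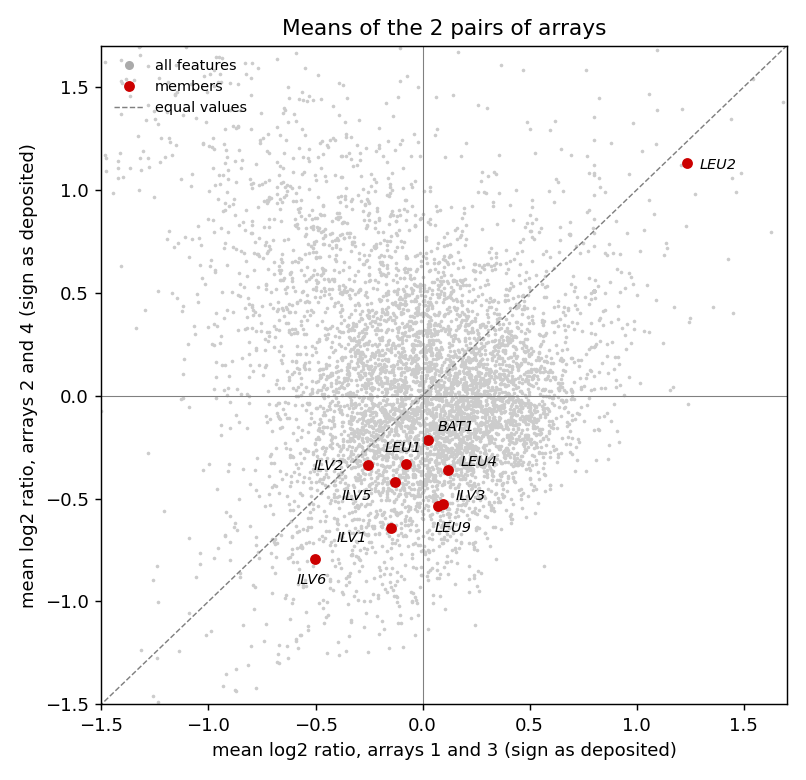
Mean log2 ratio on arrays 2 and 4 (vertical axis) against that on arrays 1 and 3 (horizontal axis), sign as deposited, for all features (grey points, of which 82 lie outside the axes) and the 10 members (red, named), with a dashed line at equal values. LEU2 lies at 1.24 and 1.13, apart from the other members, ILV6 is the lowest member in both pairs at -0.50 and -0.79, and ILV3, LEU4, LEU9 and BAT1 lie on opposite sides of 0 in the pairs.

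Lists of genes around the pathway were described with the same fit. Of all features, 3.23% were called, 20.8% had an unadjusted p below 0.05 in limma, and 47.5% had a mean below 0. Threonine, the substrate of Ilv1, is made by 5 enzymes encoded by HOM3, HOM2, HOM6, THR1 and THR4, and their list had 0 genes called by limma and 0 at an unadjusted p below 0.05. All 5 had negative means over the 4 arrays, with a median of -0.26, but by pair the list median was 0.08 for arrays 1 and 3 and -0.41 for arrays 2 and 4. The homoserine kinase gene THR1 had -0.02, -0.78, -0.34 and -0.04 on arrays 1 to 4. The threonine synthase gene THR4 had -0.47, 0.13, -0.78 and 0.05, and was the 1 gene of the list that was higher on arrays 2 and 4.

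Of 5 regulators, the activator genes LEU3 and GCN4 and the Gcn4 control genes GCN1, GCN2 and GCN20, limma called 0, with 0 at an unadjusted p below 0.05, and their median was 0.01. LEU3 had 0.35, -0.03, 0.26 and -0.15 on arrays 1 to 4, a mean of 0.11 ± 0.23 (SD, n = 4; limma adjusted p = 0.691). GCN1, whose product helps the kinase Gcn2 sense uncharged tRNA, had 0.12, 0.35, -0.52 and 0.39. GCN4, named after its values were seen, had 0.35, -0.45, 0.50 and -0.34, positive on arrays 1 and 3 and negative on arrays 2 and 4. GCN2, also named after its values were seen, had the opposite signs, with -0.60, 1.00, -0.87 and 0.47. Of the 5 regulators, 3 were lower on arrays 2 and 4, against 53.9% of all features. Gcn4 is controlled largely at translation, which a transcript ratio does not measure.

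Among 12 genes of uptake, sensing and mitochondrial carriers limma called 1 positive gene and no negative one, against 3.23% of all features in either direction. The list median was 0.00, and 6 of 12 means were negative, against 47.5% of all features. The permease genes BAP2, BAP3 and TAT1, named after their values were seen, had means of -0.06, 0.08 and -0.03. The called gene was GAP1, the general amino acid permease, with 0.74, 0.49, 0.87 and 0.64 on arrays 1 to 4. All 4 arrays were positive, with a mean of 0.68 ± 0.16 (SD, n = 4; limma adjusted p = 0.0418), and the call was lost without any 1 array and with quantile normalization. AGP1, a broad amino acid permease, had 0.16, 0.77, 0.11 and 0.58, positive on every array but not called by limma (adjusted p = 0.216).

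The 8 genes listed under breakdown and cytosolic transamination were BAT2, ARO10, PDC1, PDC5, PDC6, CHA1, MMF1 and HMF1, a heading that need not describe each of them. All 8 had negative means, against 47.5% of all features, with a median of -0.34. Limma called 0 of them, with 1 at an unadjusted p below 0.05, against 3.23% and 20.8% of all features. That gene was PDC5, for a pyruvate decarboxylase that can also act on branched keto acids, with -0.99, -0.97, -0.22 and -0.40 on arrays 1 to 4 and a mean of -0.65 ± 0.39 (SD, n = 4; limma adjusted p = 0.116). Its paralog PDC6 had -1.40, -0.30, -0.33 and 0.36, mixed in sign. For the pair 1 and 3 the list median was 0.05, and for the pair 2 and 4 it was -0.63.

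The 3 genes of the pantothenate branch, which starts from the keto acid of valine, had negative means with a median of -0.18, and limma called 0 of them, with 0 at an unadjusted p below 0.05. ECM31, for its first enzyme, had -1.16, 0.09, -0.80 and 0.41 on arrays 1 to 4, and PAN5 had -0.22, -0.32, -0.14 and -0.01. The genes that charge tRNA with leucine, isoleucine and valine numbered 5, with a median of -0.17 and 0 called by limma, and 0 at an unadjusted p below 0.05. Among them VAS1, for valyl-tRNA synthetase, had -0.11, -0.59, -0.02 and -0.51, and CDC60, for cytosolic leucyl-tRNA synthetase, had 0.14, -0.34, -0.07 and -0.43. These were the 2 of 5 genes that were lower on arrays 2 and 4, against 53.9% of all features. NAM2, named after its values were seen, went the other way with -0.69, 1.29, -0.81 and 0.77. By pair the list median was -0.06 for arrays 1 and 3 and -0.15 for arrays 2 and 4.

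Glutamate gives the amino group in the last step, and the list of 5 genes that make or use glutamate and glutamine had a positive median of 0.32. Limma called 0 of them, with 2 at an unadjusted p below 0.05, against 3.23% and 20.8% of all features. GDH2, for the glutamate dehydrogenase that breaks glutamate down, had 0.81, 0.36, 0.75 and 0.52 on arrays 1 to 4, positive on every array (mean 0.61 ± 0.21, SD, n = 4; limma adjusted p = 0.0631). GLT1, for glutamate synthase, had 0.37, 0.36, 0.22 and 0.57 (limma adjusted p = 0.13).

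**Figure D4:**
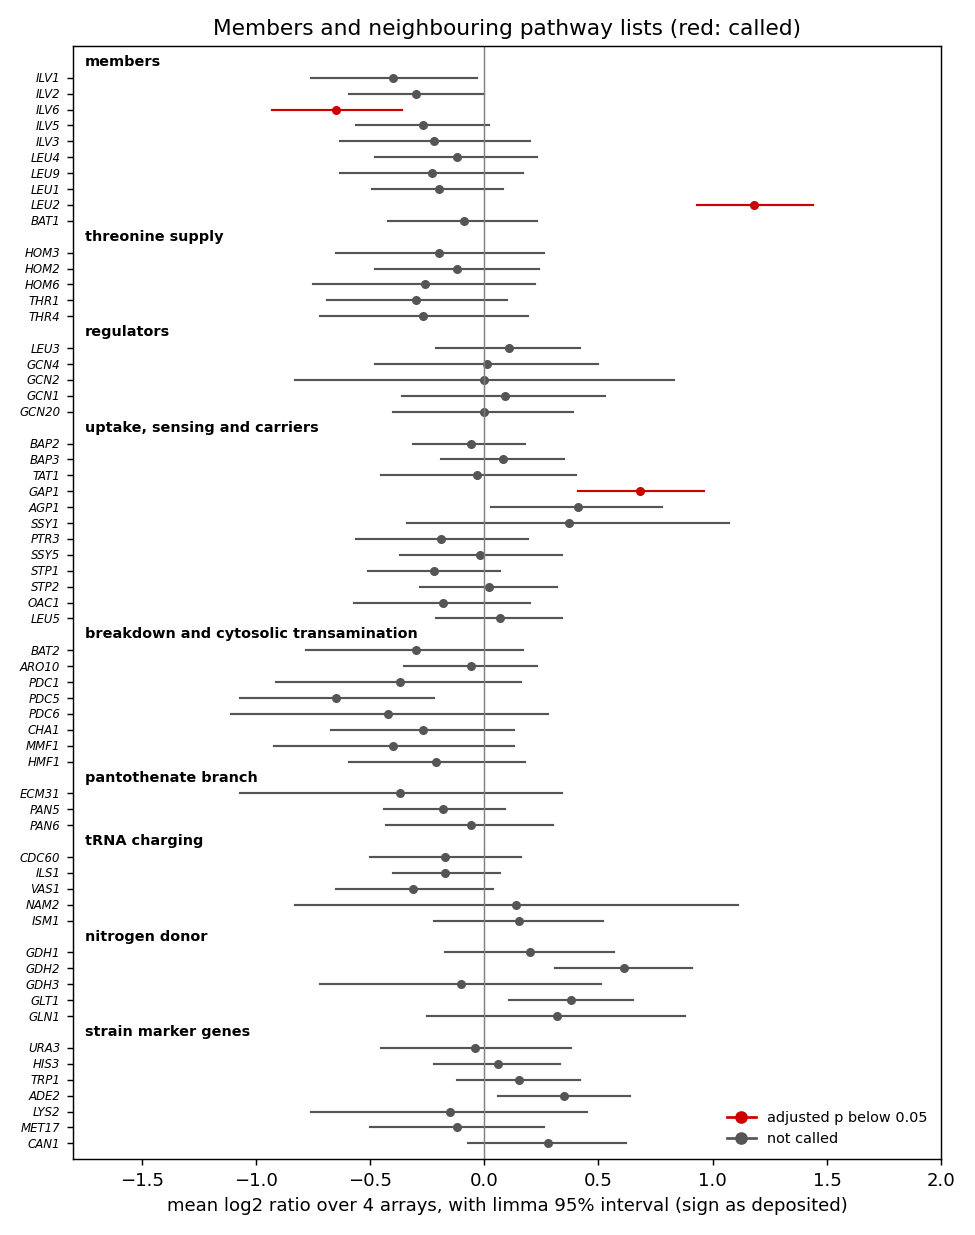
Mean log2 ratio over the 4 arrays (horizontal axis, sign as deposited) with limma's 95% interval for the 10 members and for each gene of the lists around the pathway, in red where the adjusted p was below 0.05. LEU2 at 1.18, GAP1 at 0.68 and ILV6 at -0.65 are the called genes, and the intervals of most others cross 0.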

How the data were processed

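The table deposited by the authors holds a log ratio for each probe of each array. The deposited values have both signs, from -4.3 to 2.67, as logs of ratios do, which does not settle the base, and log2 is assumed. No source used here gives the dyes, scanner, background correction, normalization, log base or numerator. The column medians were -0.01, 0.03, -0.03 and 0.02 on arrays 1 to 4, with any earlier centring not stated. There were 6226 probes with 0 missing values. On each array 1 value was shared by between 35 and 46 probes, none of them a member's.

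The platform annotation gave 5576 probes 1 gene, 0 several and 650 none, with symbols updated through the RefSeq table of assembly R64, from which 4 probes' identifiers were absent. Arrays were centred on their medians and probes of a gene averaged (36 genes). Ratios were tested against 0 with lmFit and eBayes of limma 3.58.1 (R 4.3.3), intercept only, 3 residual degrees of freedom, two-sided, with Benjamini-Hochberg adjustment over all features. An exact sign-flip test of 4 arrays cannot go below 0.125 and was not used. The fit was also run on simulated arrays that were independent of each other, which cannot show how it performs on arrays that fall into pairs. Python 3.11.15, pandas 2.3.3 and matplotlib 3.10.9 were used for tables and plots.

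The members and lists were chosen with earlier results of these data known. Named were all members, and from each list every called gene and the 2 with the largest mean in size. Others were named after their values were seen. MET15 is in the RefSeq table as MET17. Alternatives covered scaling, error models, single and left-out arrays, turned signs, probe handling and thresholds. Promoter motifs and protein sequences were not analysed here.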

Additional observations from a re-analysis of the deposited data

How the results depend on the processing

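The call of LEU2 was kept and its sign was positive without centring and with equal spread, quantile normalization, robust eBayes, array weights (which stopped short of full convergence), the pair term, single probes, treat, or probes with repeated values left out. ILV6 was negative under all of these and lost its call with quantile normalization and treat. With quantile normalization limma called 1 member, 0 genes of the other lists and 98 features in all. Treat against 1.2-fold called 1 member, 0 list genes and 40 features. At an adjusted p below 0.01 limma called 0 members, 0 list genes and 2 features, with 4 members and 1286 features at an unadjusted p below 0.05. The counts without 1 array were 0 to 1 members, 0 list genes and 0 to 22 features, with between 2 and 4 members at an unadjusted p below 0.05, and the member median lay between -0.29 and -0.11. These fits have fewer arrays. BAT1 lay between -0.19 and 0.01, positive without array 2, and GCN1 between -0.01 and 0.29, negative without array 4.

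With the term for the pairs limma called 5 members, 16 list genes and 2021 features. Arrays 1 and 3 alone gave 2, 13 and 2059, and arrays 2 and 4 alone 8, 24 and 2602. These fits take no account of the spread between the pairs. On arrays 1 and 3 alone ILV3 (0.10), LEU4 (0.12), LEU9 (0.07), BAT1 (0.03), GCN1 (-0.20) and CDC60 (0.04) had the opposite sign, and on arrays 2 and 4 alone THR4 (0.09), LEU3 (-0.09), PDC6 (0.03) and ECM31 (0.25). With the signs of arrays 2 and 4 turned, limma called 0 members (0 at an unadjusted p below 0.05), 2 list genes and 302 features. The member median was then 0.15, and ILV1 (0.25), ILV2 (0.04), ILV6 (0.15), ILV5 (0.15), ILV3 (0.31), LEU4 (0.24), LEU9 (0.30), LEU1 (0.13), BAT1 (0.12), THR1 (0.11), GCN1 (-0.28), AGP1 (-0.27), PDC5 (0.04), CDC60 (0.21), VAS1 (0.25) and GLT1 (-0.09) had the opposite sign. The cause was not tested. No fit that pairs arrays by number across groups could be made because all arrays form 1 group, and each ratio already pairs both strains. Dixon's criterion at the 95% level was applied to 27 items: the members, the member median, and the list genes named by call or size of mean. It flagged 0 of them. Genes named after their values were seen and neighbours on the chromosome were not put to it.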

Other observations

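Protein-coding genes that lie next to a member in the RefSeq gene order were looked up for LEU2 and for the 5 members that were negative on all arrays. The calls among them stand beside 3.23% of all features called. Of the neighbours of ILV2, SPG4, a gene needed for survival in stationary phase, was called positive by limma with a mean log2 ratio of 1.26 ± 0.34 (SD, n = 4; adjusted p = 0.0289), and the myosin gene MYO5 had -0.23 ± 0.32. Next to ILV5, TAL1, the transaldolase gene of the pentose phosphate pathway, was called negative at -0.76 ± 0.16 (SD, n = 4; limma adjusted p = 0.0319), with -0.86, -0.73, -0.90 and -0.55 on arrays 1 to 4, while ATG33 on its other side had 0.08 ± 0.39.

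The neighbours of LEU2 were YCL020W at 0.27 ± 0.09 and the cysteine desulphurase gene NFS1 at -0.24 ± 0.46 (SD, n = 4 each), with limma adjusted p of 0.206 and 0.53. Those of ILV6 were SGF29, of the SAGA complex, at -0.30 ± 0.54 and STP22, of the ESCRT machinery, at -0.23 ± 0.30, with limma adjusted p of 0.496 and 0.43. The neighbours of ILV1 and LEU1 had means between -0.24 and 0.06, and limma called 0 of these 4, with 0 at an unadjusted p below 0.05.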
